A study of Mus musculus with 6 samples.

Results

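Genes for Wnt ligands, their receptors and their secreted modulators were followed in mouse ovaries that lacked 1 working copy of Rnf111. They were picked from the count table by symbol: names starting with Wnt, Fzd, Sfrp, Dkk or Rspo and a digit, plus Lgr4, Lgr5, Lgr6, Lrp5, Lrp6, Znrf3, Rnf43, Axin2, Wif1, Notum and Frzb. Of 53 such symbols among 35415 in the table, 41 reached 10 counts in at least 3 of the 6 libraries and form the set described here. None of the 41 reached that minimum through libraries of 1 genotype alone, and 38 had 10 counts in all 6. The set held 12 Wnt ligands, 10 Frizzled receptors with the coreceptors Lrp5 and Lrp6, 8 genes of the R-spondin branch, 6 secreted inhibitors, the feedback genes Axin2 and Notum, and Fzd10os, a long non-coding RNA gene that neighbours Fzd10. The tested animals were Rnf111+/- mice (3 libraries, replicates 1 to 3) and the comparison animals were wild-type mice (3 libraries, replicates 1 to 3), all aged 3 months and in estrus, with whole ovary as the tissue and no treatment named. Rnf111 encodes Arkadia, a ubiquitin ligase of the TGF-beta pathway, and the mutant mice were made with CRISPR-Cas9 to model single-copy loss in premature ovarian insufficiency. The labels do not say which edited line was sequenced, and they give each library the name of 1 mouse.

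Wnt proteins are lipid-modified growth factors that bind Frizzled receptors together with LRP5 or LRP6, which stops the destruction of beta-catenin and lets it switch on target genes, while other Wnts act through Frizzled on cell polarity and calcium. The ligases ZNRF3 and RNF43 remove Frizzled from the cell surface, R-spondins bound to LGR4, LGR5 or LGR6 lift that brake, and SFRP, FRZB and DKK proteins block the ligands or the coreceptors outside the cell. In the mouse ovary, Wnt4 and Rspo1 direct female differentiation of the gonad, and later Wnt4 acts in granulosa cells and in the corpus luteum, the gland formed after ovulation.

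Library totals lay between 38261449 and 39474515 counts. Levels are CPM, the counts of a gene scaled to a fixed library total, after scaling by the trimmed mean of M values (TMM), and a floor of 3 counts corresponded to 0.0747 to 0.0784 CPM, which covers counting error only. Rnf111 itself stood at 1773, 1759 and 1712 counts in Rnf111+/- libraries, against 2060, 2063 and 2130 in wild-type libraries (log2 fold change -0.27 ± 0.07 SE, adjusted p = 0.04 by edgeR). The groups did not overlap, but Rnf111 no longer passed when any single library except wild-type replicate 3 was left out (adjusted p of 0.106 to 0.146), with scaling by upper quartiles (0.0602) and with no low-count filter (0.0762). Markers of oocytes, granulosa cells, luteal cells, stroma and surface epithelium were expressed, and 0 of 101 marker genes were at 0 in all libraries. Wild-type replicate 3 stood apart from the other wild-type libraries, with log2 CPM correlations across genes of 0.9735 and 0.9745 with them against 0.9887 between those, so the results that rest on it are given with and without it. It also had the highest sum over oviduct markers, which was 45.3 to 51.9 CPM in Rnf111+/- libraries and 62.3 to 242 CPM in wild-type libraries. Ovgp1, the oviduct glycoprotein gene, was at 2.59, 8.05 and 4.88 CPM in Rnf111+/- libraries, against 1.85, 6.27 and 146 CPM in wild-type libraries. The ovary was sampled whole, so fewer cells of a type and less RNA per cell cannot be told apart.

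Across the Wnt set, 4 genes rose and 7 fell in Rnf111+/- ovaries, and 30 did not pass (edgeR's quasi-likelihood test, adjusted p under 0.05 over all 16841 genes tested). These 11 calls are 26.8% of the set, where 9.64% of all tested genes were called, 3.9% as higher and 5.74% as lower. The genes that rose were the R-spondin receptors Lgr5 and Lgr6 and the Frizzled receptors Fzd2 and Fzd8. Those that fell were the ligands Wnt4, Wnt5a, Wnt6 and Wnt10a, the receptor Fzd1, the R-spondin Rspo3 and the feedback gene Axin2. The median log2 fold change was -0.09 over the set and -0.01 over all tested genes, with 20 Wnt genes above 0 and 21 below. The median absolute log2 fold change was 0.49, against 0.20 over all tested genes, and 10 of 41 reached 1, or 24.4%, against 7.68% of all genes. For 21 of the 41 (51.2%) the Rnf111+/- and wild-type values did not overlap, against 32% of all tested genes. Where genes averaging under 1 CPM were set aside, 30.6% of the 36 Wnt genes left were called, against 10.8% of all genes left. Without wild-type replicate 3, 8 Wnt genes rose and 8 fell, with 7.37% and 8.82% of all genes called in these directions. Of those 16 genes, 10 were among the 11 called with all libraries. The counts were 4 and 4, 2 and 5, and 2 and 3 without Rnf111+/- replicates 1, 2 and 3. They were 4 and 7, and 3 and 5, without wild-type replicates 1 and 2. Over all genes, 1623 were called with all libraries. Without Rnf111+/- replicates 1, 2 and 3 these calls numbered 859, 530 and 557, and without wild-type replicates 1 and 2 they numbered 865 and 826.

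**Figure D1:**
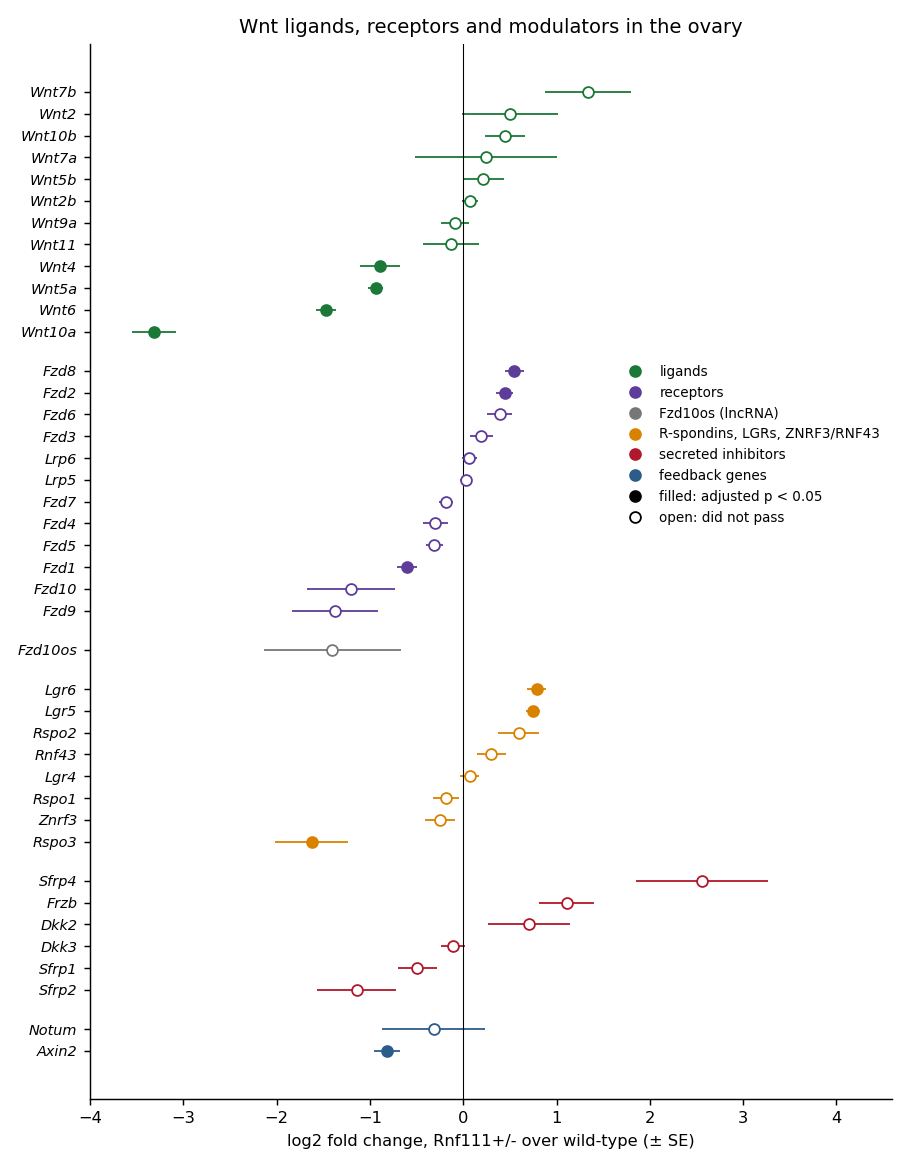
Log2 fold change of each of the 41 genes, Rnf111+/- over wild-type, with its standard error, ordered by role; filled points passed edgeR's test at an adjusted p under 0.05 and open points did not. The filled points are 4 rises of 0.45 to 0.79 and 7 falls that reach -3.31 for Wnt10a, while Sfrp4 has the highest value (2.56) with a wide error and an open point.

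Promoters here run from 250 bases before to 50 bases after a RefSeq transcription start, and any of the set on 1 chromosome were set aside. Promoter sequences were used for 23 of the 41 genes and for 5 of the 11 that changed. They come from RefSeq on build GRCm38.p6, whereas the counts were made on GRCm39, and they are shown for the ligands Wnt4 and Wnt6, the feedback gene Axin2 and the receptor Fzd1, as the 4 genes that fell and have a promoter in the table; Wnt10a, Wnt5a and Rspo3 fell too and have none there. The windows are chr4:137277385-137277684 (plus strand) for Wnt4, chr1:74771642-74771941 (plus strand) for Wnt6, chr11:108920099-108920398 (plus strand) for Axin2 and chr5:4758167-4758466 (minus strand) for Fzd1. Capitals mark every match, on either strand, to CTTTGA (the core of TCF/LEF sites, through which beta-catenin acts), GTCTG (the core of a SMAD element) and GGCGCC (a GC-rich SMAD element); none of these matches overlap.
Wnt4: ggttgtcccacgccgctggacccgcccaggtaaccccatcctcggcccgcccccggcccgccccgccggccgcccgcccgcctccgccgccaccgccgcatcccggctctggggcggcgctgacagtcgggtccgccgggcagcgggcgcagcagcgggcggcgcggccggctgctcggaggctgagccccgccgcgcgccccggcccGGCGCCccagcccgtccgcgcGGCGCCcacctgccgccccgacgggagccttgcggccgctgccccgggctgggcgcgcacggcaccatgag
Wnt6: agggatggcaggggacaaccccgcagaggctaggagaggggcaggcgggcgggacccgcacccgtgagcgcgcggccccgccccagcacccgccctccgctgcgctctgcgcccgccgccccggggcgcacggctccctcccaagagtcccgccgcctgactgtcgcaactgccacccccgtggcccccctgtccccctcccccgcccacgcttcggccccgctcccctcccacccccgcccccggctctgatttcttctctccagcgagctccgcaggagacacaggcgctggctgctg
Axin2: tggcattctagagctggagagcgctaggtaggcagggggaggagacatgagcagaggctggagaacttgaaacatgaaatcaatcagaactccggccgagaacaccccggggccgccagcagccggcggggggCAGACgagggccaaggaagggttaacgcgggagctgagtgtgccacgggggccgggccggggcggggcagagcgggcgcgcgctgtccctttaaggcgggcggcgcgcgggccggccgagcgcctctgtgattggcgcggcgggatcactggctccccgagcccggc
Fzd1: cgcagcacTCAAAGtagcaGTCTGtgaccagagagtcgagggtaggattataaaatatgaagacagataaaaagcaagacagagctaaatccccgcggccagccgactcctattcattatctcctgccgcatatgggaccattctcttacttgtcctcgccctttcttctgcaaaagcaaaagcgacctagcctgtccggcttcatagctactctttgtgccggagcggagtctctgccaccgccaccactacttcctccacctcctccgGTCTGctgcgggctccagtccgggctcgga
The TCF/LEF core was in 1 of the 5 promoters, that of Fzd1, and in 16% of all 32851 promoters in the table. GTCTG or its reverse complement was in those of Axin2 and Fzd1 and in 49.6% of all promoters, and GGCGCC was in that of Wnt4 and in 11.9%. The Wnt6 window and that of Lgr6, the fifth of the promoters, which is not shown, held none of the 3 motifs. The 23 genes had 27 promoters in all, of which 4 held CTTTGA, 13 held GTCTG and 10 held GGCGCC. These belonged to 4, 11 and 10 genes, most of which did not pass, and only 5 of the 23 genes had passed. A match is a run of letters, not a shown binding site, and its absence says nothing beyond this window.

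Among ligands, 4 of 12 fell and none rose, where 5.74% of all tested genes fell and 3.9% rose. Wnt10a fell furthest, to 30, 23 and 22 counts in Rnf111+/- libraries, against 215, 272 and 251 in wild-type libraries. Its level was 0.637 ± 0.0962 CPM in Rnf111+/- ovaries and 6.36 ± 0.721 CPM in wild-type ovaries (SD, n = 3 each), a log2 fold change of -3.31 ± 0.24 (SE, adjusted p = 0.000253 by edgeR). Every Rnf111+/- library lay far below every wild-type library. Wnt6, a ligand best known from epithelial tissues, was at 34.6, 32.8 and 30.8 CPM in Rnf111+/- libraries, against 80.7, 86.6 and 105 CPM in wild-type libraries (log2 -1.47 ± 0.11, edgeR adjusted p = 0.000285). The groups were again apart, and the Rnf111+/- libraries differed little among themselves. Wnt6 and Wnt10a neighbour each other on chromosome 1 with 0 protein-coding genes and 2 non-coding genes between them in the RefSeq annotation. They did not fall in step: the count ratio of Wnt6 to Wnt10a was 46.4, 55.8 and 53.6 in Rnf111+/- libraries, against 14.4, 12.3 and 16.4 in wild-type libraries. Wnt10b, which neighbours Wnt1 on chromosome 15, had 5245, 3113 and 4564 counts in Rnf111+/- libraries, against 2465, 3223 and 3653 in wild-type libraries (log2 0.45 ± 0.21, edgeR adjusted p = 0.248), while Wnt1 had at most 5 in any library.

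Wnt5a, which acts mainly on cell polarity and movement, fell to 62.7, 54.0 and 54.9 CPM in Rnf111+/- libraries, against 105, 116 and 107 CPM in wild-type libraries (log2 -0.94 ± 0.08, edgeR adjusted p = 0.000589). The spread within each genotype was small beside the gap between them. Its close relative Wnt5b was at 15.5, 8.71 and 10.2 CPM in Rnf111+/- libraries, against 9.24, 11.1 and 9.30 CPM in wild-type libraries, and did not pass (0.22 ± 0.22). Wnt4 was at 116, 174 and 126 CPM in Rnf111+/- libraries, against 197, 260 and 315 CPM in wild-type libraries (log2 -0.89 ± 0.21, edgeR adjusted p = 0.0492). The groups did not overlap, but both were wide, and the call sits at the threshold. It was lost without Rnf111+/- replicate 1 (adjusted p = 0.126) or 3 (0.159) and without wild-type replicate 2 (0.131) or 3 (0.108, log2 -0.71), with no low-count filter (0.154), with scaling by DESeq2 size factors (0.0501) or by upper quartiles (0.0521) and with library quality weights in limma-voom (0.056). The falls of Wnt10a, Wnt6 and Wnt5a held in all 6 fits that left out 1 library, with log2 values from -3.44 to -3.22 for Wnt10a, -1.54 to -1.34 for Wnt6 and -1.01 to -0.89 for Wnt5a.

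Levels of the ligands were set side by side per kilobase of exon. In wild-type ovaries the order began with Wnt4, Wnt6, Wnt10b, Wnt2b and Wnt5a. In Rnf111+/- ovaries Wnt4 was at 33.0 ± 7.32 and Wnt10b at 32.3 ± 7.89 CPM per kilobase (SD, n = 3 each), which did not differ beyond their spread, followed by Wnt2b at 21.6 ± 2.12, Wnt6 at 14.9 ± 0.873 and Wnt5a at 7.31 ± 0.615. The wild-type values were 61.4 ± 14.1 for Wnt4, 41.5 ± 5.88 for Wnt6, 23.6 ± 4.33 for Wnt10b, 20.6 ± 0.735 for Wnt2b and 14.0 ± 0.739 CPM per kilobase for Wnt5a, with Wnt10b and Wnt2b within their spread of each other. Wnt6 thus stood in place 4 among ligands in Rnf111+/- ovaries and in place 2 in wild-type ovaries, and Wnt10a stood in place 11 of 12 in Rnf111+/- ovaries and, within its spread of Wnt9a, in place 7 in wild-type ovaries (2.58 ± 0.292 CPM per kilobase for Wnt10a and 2.55 ± 0.169 for Wnt9a). The ratio of Wnt4 to Wnt10b counts was 0.889, 2.18 and 1.06 in Rnf111+/- libraries, against 3.07, 3.11 and 3.38 in wild-type libraries. Wnt2b, an ovarian ligand at a steady level, was at 81.6, 91.4 and 99.3 CPM in Rnf111+/- libraries, against 83.4, 89.6 and 86.4 CPM in wild-type libraries (0.07 ± 0.08, edgeR adjusted p = 0.656). Summed over the 12 ligands, the level was 458 to 464 CPM in Rnf111+/- libraries and 559 to 743 CPM in wild-type libraries.

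**Figure D2:**
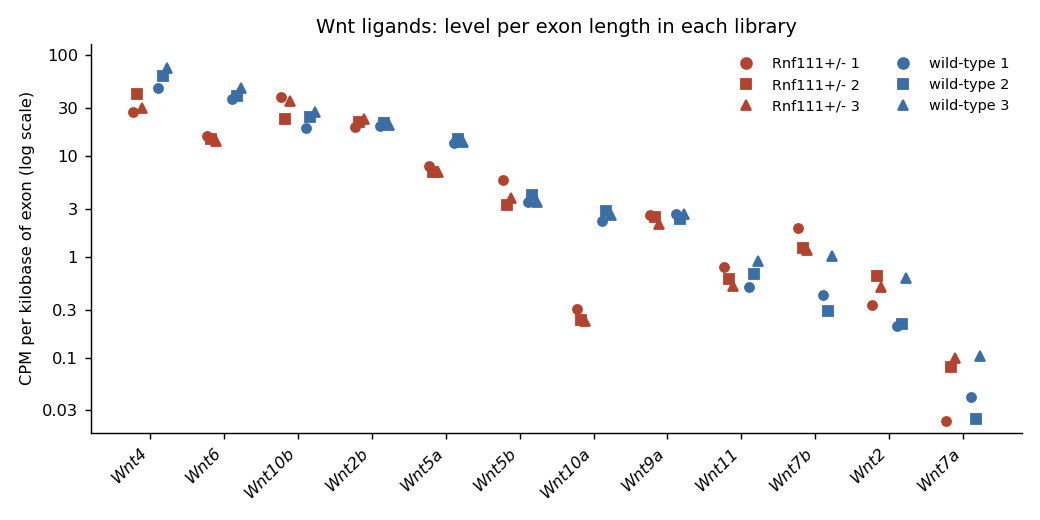
Level of each Wnt ligand gene in CPM per kilobase of exon on a log axis, 1 point per library (shape gives the replicate), ordered by the wild-type mean. Wnt4, Wnt6, Wnt5a and Wnt10a lie lower in all 3 Rnf111+/- libraries. Among wild-type points those of replicate 3 are the highest for Wnt4, Wnt6, Wnt10b, Wnt9a, Wnt11, Wnt7b, Wnt2 and Wnt7a, by the widest margins for the last 3.

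The remaining ligands were scarce. Wnt7b was at 9.49, 5.98 and 5.80 CPM in Rnf111+/- libraries, against 2.04, 1.42 and 4.96 CPM in wild-type libraries (log2 1.34 ± 0.46, edgeR adjusted p = 0.123). The groups did not overlap, and the highest wild-type value was that of replicate 3. Without it the log2 fold change was 2.04 ± 0.30 (adjusted p = 0.000926). With all libraries Wnt7b passed with DESeq2 (adjusted p = 0.014) and with library quality weights in limma-voom (1.78, adjusted p = 0.00618). Wnt9a, Wnt11, Wnt2 and Wnt7a, at mean levels of 0.197 to 8.25 CPM over all libraries, had log2 values from -0.13 to 0.50 and did not pass. In wild-type replicate 3, 5 of the 41 genes were at least at 2 times their mean in the other wild-type libraries: Sfrp4, Wnt7b, Wnt2, Wnt7a and Notum (log2 ratios of 1.999, 1.52, 1.55, 1.67 and 1.59).

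Markers of several cell types differed beside the ligands, where 5.74% of all tested genes fell. Stromal markers fell in 6 of 10 cases, and their summed level was 2593 to 3030 CPM in Rnf111+/- libraries and 4010 to 4623 CPM in wild-type libraries. Of smooth muscle and pericyte markers, 4 of 9 fell (773 to 1017 CPM in Rnf111+/- and 1224 to 1529 CPM in wild-type libraries), as did 6 of 9 endothelial markers (331 to 377 CPM in Rnf111+/- and 450 to 526 CPM in wild-type libraries). Of surface epithelium and mesothelium markers, 3 of 10 fell (557 to 647 CPM in Rnf111+/- and 715 to 877 CPM in wild-type libraries). For stroma, endothelium and surface epithelium the highest wild-type sum was that of replicate 3, and the lowest came from another wild-type library. These marker counts varied with the library left out, as did the calls over all genes, 1623 with all libraries. Those calls numbered 859, 530 and 557 without Rnf111+/- replicates 1, 2 and 3, and 865, 826 and 2795 without wild-type replicates 1, 2 and 3. Without Rnf111+/- replicates 1, 2 and 3, the falls numbered 3, 3 and 5 for stroma, 2, 2 and 4 for smooth muscle, 2, 0 and 1 for endothelium and 1, 0 and 1 for surface epithelium. Without wild-type replicates 1, 2 and 3 they numbered 4, 5 and 6 for stroma, 4, 3 and 4 for smooth muscle, 2, 1 and 5 for endothelium and 1, 1 and 3 for surface epithelium. The part of these cell types in the falls of Wnt genes was not tested.

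Of the 12 Frizzled and LRP receptor genes, 2 rose, 1 fell and 9 did not pass (25% called, against 9.64% of all tested genes). Fzd1, which per kilobase was the most abundant of these 12 genes in both genotypes, was at 97.4, 84.3 and 91.6 CPM in Rnf111+/- libraries, against 123, 132 and 160 CPM in wild-type libraries (log2 -0.60 ± 0.11, edgeR adjusted p = 0.0118). Fzd2 was at 38.2, 36.6 and 40.7 CPM in Rnf111+/- libraries, against 26.3, 28.2 and 30.3 CPM in wild-type libraries (0.45 ± 0.09, adjusted p = 0.0209 by edgeR). Fzd8 was at 22.2, 23.2 and 24.7 CPM in Rnf111+/- libraries, against 15.5, 16.4 and 16.1 CPM in wild-type libraries (0.55 ± 0.10, edgeR adjusted p = 0.0132). In each of the 3 genes the groups were apart, by steps smaller than those of the ligands. Within libraries, the count ratio of Fzd1 to Fzd2 was 2.55, 2.31 and 2.25 in Rnf111+/- libraries, against 4.68, 4.68 and 5.28 in wild-type libraries. Per kilobase, Fzd1 was at 21.7 ± 1.57 and Fzd2 at 10.5 ± 0.575 in Rnf111+/- ovaries, against 32.9 ± 4.56 and 7.71 ± 0.544 CPM per kilobase in wild-type ovaries. The calls of Fzd1 and Fzd8 were lost without Rnf111+/- replicate 2 (adjusted p = 0.0675 and 0.0592) or 3 (0.0594 and 0.0667). That of Fzd2 held only without wild-type replicate 3 and was lost in the other 5 such fits, without Rnf111+/- replicates 1, 2 and 3 (0.0625, 0.0598 and 0.0929) and without wild-type replicates 1 and 2 (0.0664 and 0.0632).

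The coreceptor genes were steady. Lrp6 was at 169, 188 and 193 CPM in Rnf111+/- libraries, against 167, 172 and 187 CPM in wild-type libraries (log2 0.07 ± 0.08), and Lrp5 at 121, 120 and 116 CPM in Rnf111+/- libraries, against 120, 119 and 112 CPM in wild-type libraries (0.03 ± 0.06). The libraries of the genotypes overlapped for both genes. Fzd3, Fzd4, Fzd6, Fzd5 and Fzd7, at mean levels of 24.0 to 78.4 CPM over all libraries, had log2 values from -0.31 (Fzd5, edgeR adjusted p = 0.0627) to 0.39 (Fzd6, 0.108). Fzd5, with all Rnf111+/- libraries below all wild-type libraries, passed with DESeq2 (-0.30, adjusted p = 0.0291) and with quality weights (0.0333). Without wild-type replicate 3, Fzd6 (0.49, adjusted p = 0.0269, and 0.0325 with all libraries and quality weights) and Fzd4 (-0.40, adjusted p = 0.032) passed. The scarcest receptors had wide errors: Fzd9 had 28, 43 and 19 counts in Rnf111+/- libraries, against 83, 40 and 108 in wild-type libraries (-1.38 ± 0.46, edgeR adjusted p = 0.0997), and Fzd10 had 19, 24 and 8 in Rnf111+/- libraries, against 36, 48 and 32 in wild-type libraries (-1.20 ± 0.47, adjusted p = 0.154). Fzd9 passed with DESeq2 (-1.37, adjusted p = 0.0396). Fzd10os had 1, 7 and 13 counts in Rnf111+/- libraries, against 19, 12 and 25 in wild-type libraries (-1.40 ± 0.73, edgeR adjusted p = 0.274), and since the strand setting of the counting is not given, its reads and those of Fzd10 cannot be assumed to be separated.

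**Figure D3:**
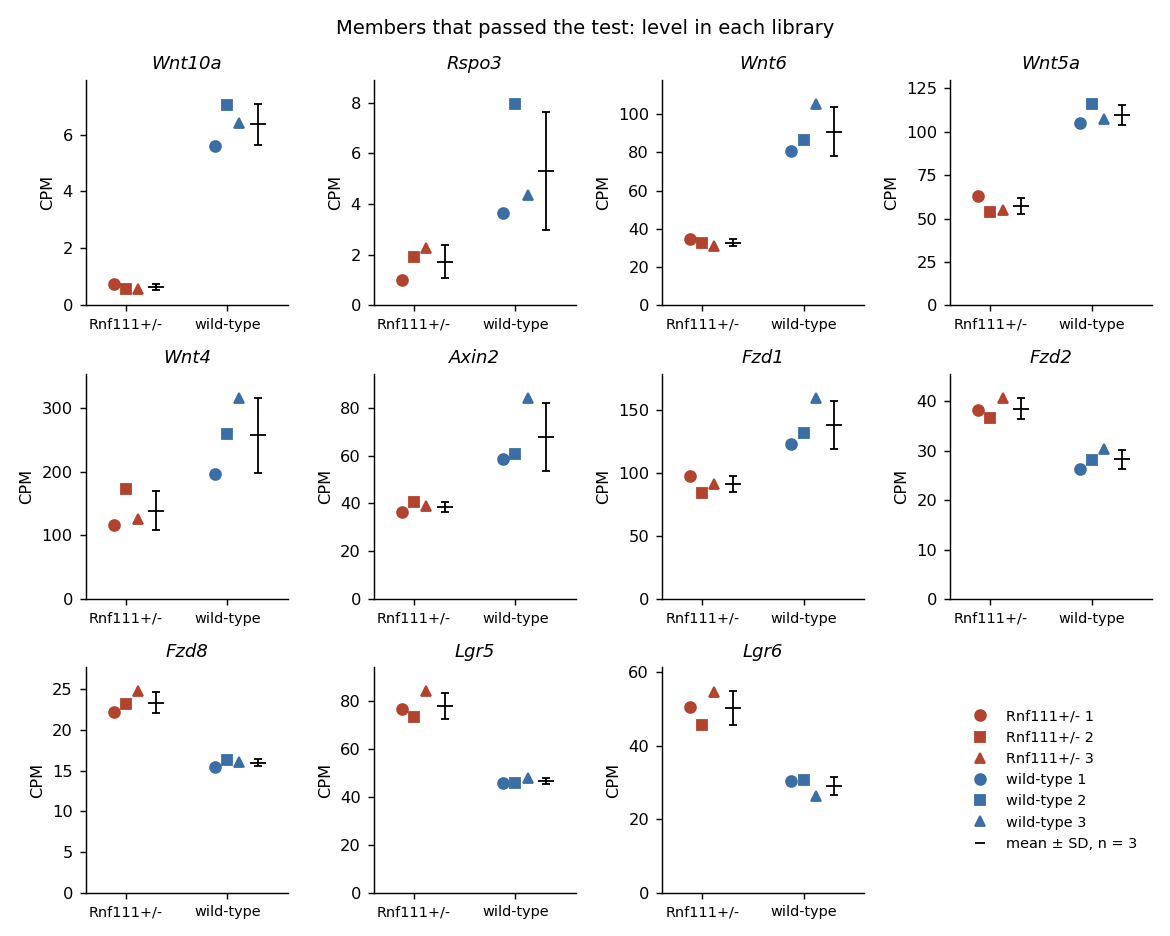
CPM in each library for the 11 genes that passed edgeR's test, ordered from the largest fall to the largest rise; shapes give the replicate, and bars give mean ± SD (n = 3). In all 11 panels the 3 Rnf111+/- libraries lie on 1 side of the 3 wild-type libraries, with the smallest relative gap for Wnt4.

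The R-spondin branch had the clearest rises. Lgr5, a receptor for R-spondins and a stem cell marker in several epithelia and in the ovarian surface epithelium, was at 76.8, 73.3 and 84.0 CPM in Rnf111+/- libraries, against 46.0, 45.8 and 48.0 CPM in wild-type libraries (log2 0.74 ± 0.08, edgeR adjusted p = 0.00114). Lgr6, its relative, was at 50.4, 45.6 and 54.6 CPM in Rnf111+/- libraries, against 30.3, 30.6 and 26.4 CPM in wild-type libraries (0.79 ± 0.10, adjusted p = 0.00327 by edgeR). Both rose by similar steps with no overlap, and both calls held in all 6 fits that left out 1 library and in all 8 other settings. Lgr4, the most abundant of the 3 receptors per kilobase, was at 136, 164 and 178 CPM in Rnf111+/- libraries, against 147, 145 and 162 CPM in wild-type libraries (0.07 ± 0.10, edgeR adjusted p = 0.721). Within libraries, the count ratio of Lgr5 to Lgr4 was 0.567, 0.446 and 0.473 in Rnf111+/- libraries, against 0.312, 0.315 and 0.296 in wild-type libraries, a mean log2 difference of 0.68. An exact two-sided permutation test of this ratio gave p = 0.1, the smallest that 3 against 3 allows. The same p held for each of the 5 ratios computed, which were chosen after their values were seen (0.1 after Benjamini-Hochberg adjustment over the 5).

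The ligands of these receptors did not move together. Rspo3, an R-spondin known for its part in blood vessels, had 40, 74 and 87 counts in Rnf111+/- libraries, against 139, 307 and 170 in wild-type libraries. It fell to 1.72 ± 0.655 CPM in Rnf111+/- ovaries, against 5.31 ± 2.32 CPM in wild-type ovaries (SD, n = 3 each, log2 -1.63 ± 0.40, edgeR adjusted p = 0.0381). Wild-type replicate 2 was the highest by far, and the call was lost without it (-1.21 ± 0.37, adjusted p = 0.114) and without Rnf111+/- replicates 1 (0.102), 2 (0.124) and 3 (0.0777). Rspo1, made by the surface epithelium and by ovarian somatic cells, was at 15.3, 18.6 and 20.6 CPM in Rnf111+/- libraries, against 19.4, 23.4 and 19.1 CPM in wild-type libraries (-0.18 ± 0.14, edgeR adjusted p = 0.469). Rspo2, which mouse oocytes make, was at 8.47, 7.82 and 8.86 CPM in Rnf111+/- libraries, against 7.38, 4.59 and 4.70 CPM in wild-type libraries (0.59 ± 0.21, edgeR adjusted p = 0.126), and it passed without wild-type replicate 1 (0.86, adjusted p = 0.0418). Beside it, 6 of 10 oocyte markers rose, with a summed level of 206 to 271 CPM in Rnf111+/- libraries and 146 to 165 CPM in wild-type libraries, where 3.9% of all tested genes rose. The lowest wild-type sum, 146 CPM, was that of replicate 3. The oocyte rises numbered 2, 1 and 4 without Rnf111+/- replicates 1, 2 and 3 and 6, 2 and 6 without wild-type replicates 1, 2 and 3, and the part of oocytes in the Rspo2 values was not tested. The ligase gene Znrf3 was at 34.2, 34.5 and 36.0 CPM in Rnf111+/- libraries, against 48.4, 45.5 and 30.3 CPM in wild-type libraries (-0.25 ± 0.16). It overlapped through wild-type replicate 3 alone and passed without it (-0.42 ± 0.08, edgeR adjusted p = 0.00599). Rnf43, the related ligase gene, was at 13.5, 13.5 and 10.8 CPM in Rnf111+/- libraries, against 10.3, 8.94 and 11.4 CPM in wild-type libraries, and did not pass (0.30 ± 0.15).

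None of the 6 secreted inhibitors passed. Per kilobase, Sfrp4 was the most abundant gene of the whole set in Rnf111+/- ovaries (626 ± 177 CPM per kilobase), while in wild-type ovaries its level of 106 ± 92.8 was not apart from the 61.4 ± 14.1 of Wnt4, a gene of nearly the same exon length, and lay below it in wild-type replicate 1. It encodes a Frizzled-related protein made by luteal cells of the rodent ovary, and it was at 2427, 1989 and 3433 CPM in Rnf111+/- libraries, against 178, 268 and 890 CPM in wild-type libraries. It alone took 0.201 to 0.344% of all counts in Rnf111+/- libraries, of 0.375 to 0.519% for the whole set, and 0.0176 to 0.0889% of 0.196 to 0.3% in wild-type libraries. The groups did not overlap, yet the wild-type libraries spanned so wide a range that the log2 fold change of 2.56 ± 0.71 did not pass edgeR's test (adjusted p = 0.0972). Without wild-type replicate 3 it was 3.57 ± 0.38 (adjusted p = 0.0113), and it passed with all libraries under DESeq2 (2.56, adjusted p = 0.00819) and under limma-voom with quality weights (3.34, adjusted p = 0.013). The count ratio of Sfrp4 to Sfrp1, another Frizzled-related gene, was 37.7, 31.2 and 47.6 in Rnf111+/- libraries, against 2.13, 3.74 and 7 in wild-type libraries.

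Akr1c18, which breaks down progesterone in regressing corpora lutea, was at 2646, 1981 and 2632 CPM in Rnf111+/- libraries, against 86.1, 66.7 and 676 CPM in wild-type libraries (log2 3.13 ± 1.06, edgeR adjusted p = 0.153). The prostaglandin receptor gene Ptgfr was at 618, 606 and 873 CPM in Rnf111+/- libraries, against 71.4, 81.9 and 454 CPM in wild-type libraries (1.79 ± 0.84, edgeR adjusted p = 0.268). Both genes, like Sfrp4, were apart between genotypes and highest among wild-type libraries in replicate 3. They were the only 2 of the 10 luteal markers other than Sfrp4 with a log2 fold change above 0, and the list was drawn up with earlier results known. The median over the list was -0.53, and Lhcgr, the luteinizing hormone receptor gene, was at 264, 80.2 and 193 CPM in Rnf111+/- libraries, against 339, 406 and 156 CPM in wild-type libraries (-0.74 ± 0.56, edgeR adjusted p = 0.48). Over these 10 markers, 4 fell (Parm1, Hsd3b1, Fdxr and Star) and none rose in edgeR's test, where 5.74% of all tested genes fell and 3.9% rose. With 1 library left out, log2 values were -2.36 to -2.03 for Parm1, -0.98 to -0.88 for Fdxr and -0.90 to -0.72 for Star. These 3 falls held in all 6 such fits, and that of Hsd3b1 (-0.60 to -0.43) held in 3. When wild-type replicate 3 was left out, 2 of the 10 luteal markers rose and 4 fell, where 7.37% and 8.82% of all genes were called in these directions. With all libraries, 1 rose under DESeq2 and 2 under limma-voom with library quality weights. The summed level was 12270 to 15700 CPM in Rnf111+/- libraries and 14060 to 15830 CPM in wild-type libraries. Granulosa markers rose in 4 of 13 cases (3 to 5 with 1 library left out, 6077 to 8277 CPM in Rnf111+/- and 2833 to 5689 CPM in wild-type libraries), where 3.9% of all tested genes rose. The lowest wild-type sum, 2833 CPM, was that of replicate 3. The 4 that rose were Bex4, Cyp19a1, Greb1 and Grem1, while Fshr, Amh, Foxl2 and Inha did not pass. With 1 library left out, the Cyp19a1 call held in 2 of the 6 fits and those of Bex4, Greb1 and Grem1 in all 6. This list too was drawn up with earlier results known, so its share of rises is no independent test of granulosa cells. The part of either cell type in the Sfrp4 values was not tested.

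**Figure D4:**
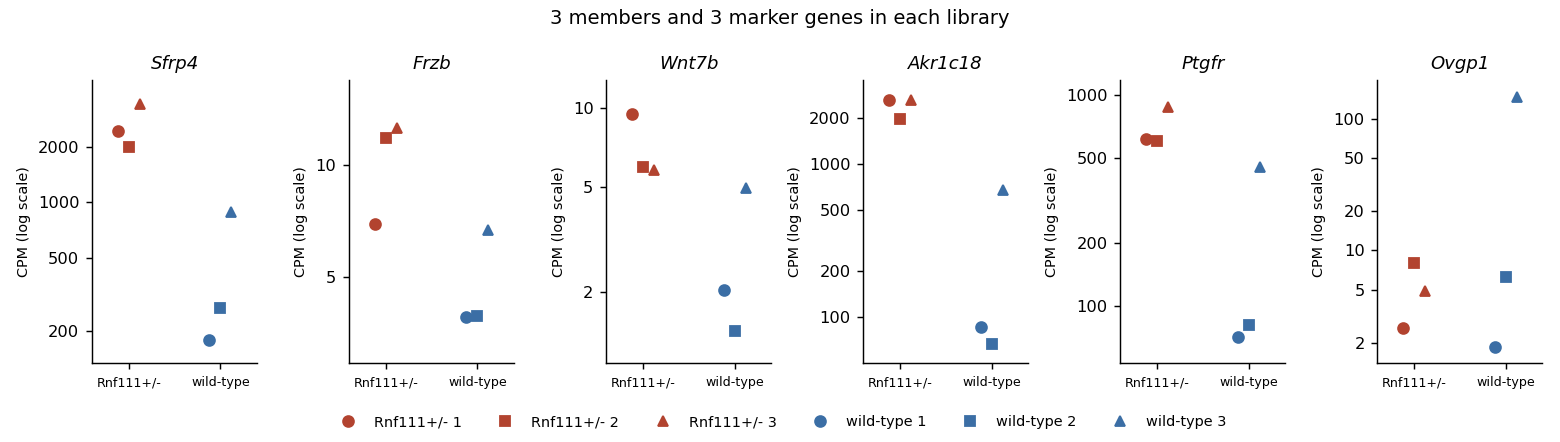
CPM on log axes in each library for Sfrp4, Frzb and Wnt7b, for the luteal markers Akr1c18 and Ptgfr, and for the oviduct gene Ovgp1. Shapes give the replicate. Akr1c18 and Ptgfr did not pass edgeR's test and are the only 2 of the 10 luteal markers other than Sfrp4 with a positive log2 fold change. The other 8, not shown, were below 0. In the first 5 panels the 3 Rnf111+/- libraries lie above the wild-type ones and wild-type replicate 3 lies above the other wild-type libraries, while Ovgp1 is high in wild-type replicate 3 alone (146 CPM).

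The other inhibitors were at far lower levels and did not pass. Frzb, also called secreted Frizzled-related protein 3, was at 6.92, 11.8 and 12.6 CPM in Rnf111+/- libraries, against 3.89, 3.91 and 6.69 CPM in wild-type libraries (log2 1.11 ± 0.30, edgeR adjusted p = 0.0529). The groups were apart by a narrow margin, set by Rnf111+/- replicate 1 and wild-type replicate 3. It passed without either of these libraries (1.33, adjusted p = 0.0422, and 1.43, adjusted p = 0.00431), with DESeq2 (adjusted p = 0.00247), with scaling by upper quartiles (0.0485), with no low-count filter (0.0322) and with quality weights (0.00959). Sfrp2 was at 5.26, 4.70 and 1.88 CPM in Rnf111+/- libraries, against 7.75, 5.88 and 12.5 CPM in wild-type libraries (-1.14 ± 0.43, edgeR adjusted p = 0.147), without overlap, and passed with DESeq2 (-1.14, adjusted p = 0.0268). Sfrp1 was at 64.4, 63.8 and 72.2 CPM in Rnf111+/- libraries, against 83.2, 71.5 and 127 CPM in wild-type libraries (-0.49 ± 0.21, edgeR adjusted p = 0.2). The distant DKK relative Dkk3 (-0.11 ± 0.13) and the scarce LRP inhibitor gene Dkk2 (0.70 ± 0.44) did not pass either. Summed over the 5 inhibitors without Sfrp4, the level was 136 to 149 CPM in Rnf111+/- libraries and 144 to 229 CPM in wild-type libraries.

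Axin2, a scaffold of the beta-catenin destruction complex that beta-catenin itself induces and that is widely used as a readout of the pathway, fell to 36.3, 40.5 and 38.9 CPM in Rnf111+/- libraries, against 58.7, 60.8 and 84.2 CPM in wild-type libraries. The log2 fold change was -0.82 ± 0.14 (SE, edgeR adjusted p = 0.0114), and the groups were well apart. The call held without wild-type replicate 3 (-0.62) and was lost without Rnf111+/- replicates 1 (adjusted p = 0.0538) and 3 (0.0557). Notum, which encodes an enzyme that removes the lipid of Wnt proteins and is another induced gene, had 51, 60 and 23 counts in Rnf111+/- libraries, against 39, 26 and 100 in wild-type libraries. It overlapped fully (-0.32 ± 0.55, edgeR adjusted p = 0.768), and its sign turned without wild-type replicate 3 (0.435).

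**Figure D5:**
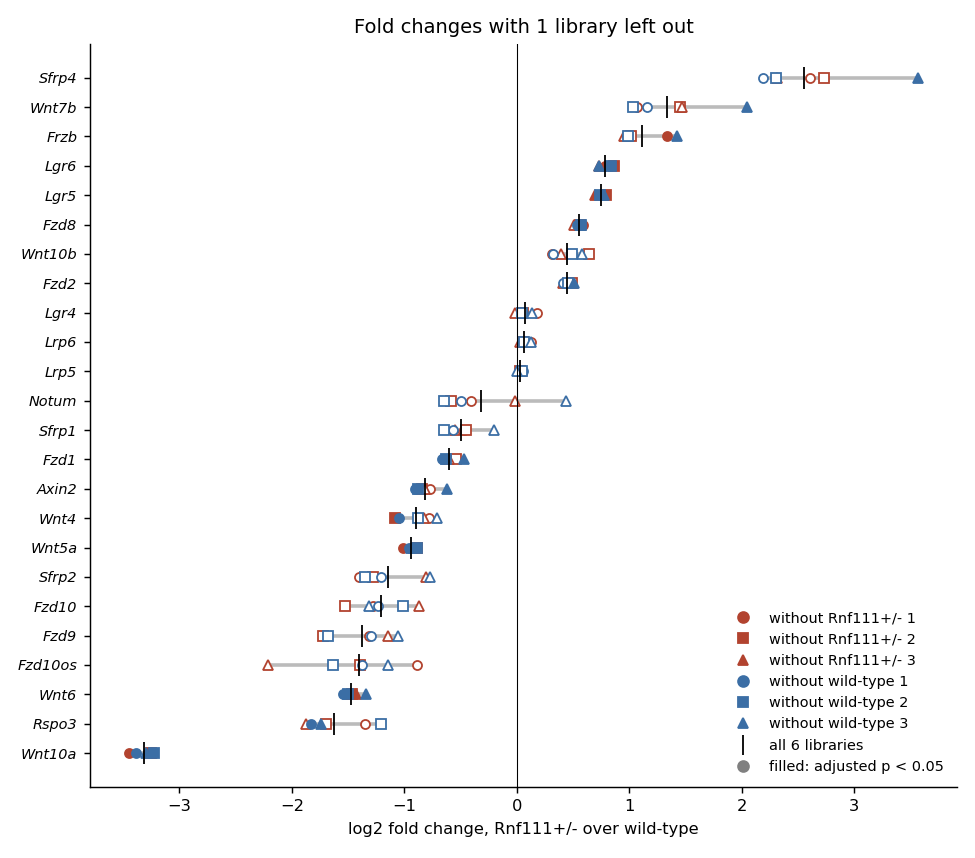
Log2 fold change of 24 genes of the set, Rnf111+/- over wild-type, in the 6 fits that each left out 1 library (colour and shape give the library left out, filled where the adjusted p was under 0.05) and with all 6 libraries (black bar). Wnt10a, Wnt6, Wnt5a, Lgr5 and Lgr6 stay filled in all 6 fits, and the values of Sfrp4, Wnt7b and Notum move most to the right without wild-type replicate 3.

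The rest of the Wnt pathway was followed through 6 lists of other genes, with 148 members in the table and 138 tested. Of these, 11 rose, 15 fell and 112 did not pass, so that 18.8% were called against 9.64% of all genes, with a median log2 fold change of -0.01. The 8 genes of ligand secretion had 1 rise, that of Porcn, the enzyme that attaches the lipid to Wnt proteins, to 22.5, 16.1 and 16.0 CPM in Rnf111+/- libraries, against 6.68, 6.87 and 10.7 CPM in wild-type libraries (1.17 ± 0.22, edgeR adjusted p = 0.0163). The cargo receptor gene Wls was at -0.09 ± 0.10 and did not pass. Of 24 tested genes for other coreceptors and extracellular modulators, 3 rose and 4 fell (29.2% called). The rises, those of Dkkl1 (1.44 ± 0.38), Sdc4 (0.47 ± 0.12) and Reck (0.42 ± 0.10), were close to the threshold, and none of the list rose when any single library except wild-type replicate 3 was left out. The falls numbered 3, 1 and 1 without Rnf111+/- replicates 1, 2 and 3. The falls were those of Tspan12, a partner of Fzd4 (-0.90 ± 0.12, edgeR adjusted p = 0.00394), Igfbp4, whose product can block Wnt receptors (-0.69 ± 0.11), Cthrc1, a cofactor of the polarity branch (-2.07 ± 0.46) and the DKK receptor gene Kremen1 (-0.34 ± 0.08).

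Inside the cell, 3 of 26 genes for Dishevelled and the destruction complex rose and none fell, a share of 11.5% that is near the 9.64% of all genes. Without Rnf111+/- replicate 2 or 3, or without wild-type replicate 2, 1 rose. Dact1, an adaptor that binds Dishevelled, rose to 129, 126 and 134 CPM in Rnf111+/- libraries, against 28.7, 32.8 and 48.4 CPM in wild-type libraries (1.82 ± 0.18, edgeR adjusted p = 0.0023), the widest rise in the lists. Cxxc4, whose product Idax binds Dishevelled too, rose by 1.14 ± 0.20, and Fbxw11, part of the ubiquitin ligase that marks beta-catenin, by 0.30 ± 0.06. Among beta-catenin and its nuclear partners, 4 of 24 rose and 2 fell (25% called), and 1 rose and none fell without Rnf111+/- replicate 2. Ctnnb1, the beta-catenin gene, fell to 737, 759 and 768 CPM in Rnf111+/- libraries, against 1064, 1160 and 905 CPM in wild-type libraries (-0.47 ± 0.09, edgeR adjusted p = 0.0201), while the transcription factor gene Tcf7l2 rose to 36.7, 39.7 and 49.7 CPM in Rnf111+/- libraries, against 24.3, 24.8 and 23.2 CPM in wild-type libraries (0.80 ± 0.12, adjusted p = 0.00645). Of the corepressor genes, Tle1 (0.43 ± 0.10), Tle3 (0.35 ± 0.07) and Tle4 (0.39 ± 0.09) rose, and Tle5 (-0.47 ± 0.08), a shorter relative, fell.

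Of 25 tested beta-catenin target genes other than those of the set, 6 fell and none rose (24% called), where 5.74% of all tested genes fell and 3.9% rose. Without Rnf111+/- replicate 2 there were 3 falls, and 530 of all genes were called, against 1623 with all libraries. Without wild-type replicate 3 there were 7 falls and 2 rises, where 8.82% and 7.37% of all genes were called in these directions. Id2 fell to 60.4, 71.8 and 63.0 CPM in Rnf111+/- libraries, against 174, 170 and 203 CPM in wild-type libraries (-1.49 ± 0.10, edgeR adjusted p = 0.00015), and Tbx3 fell by 1.27, Abcb1b by 2.53 and Ephb2 by 1.14 on the log2 scale. Id2 is also a target of BMP signalling, and several of these genes respond to other pathways. Some targets used as readouts in many tissues did not pass: Lef1 was at -0.04 ± 0.30, Nkd1 at -0.05 ± 0.15 and Sp5 at -0.10 ± 0.24, genes picked after their values were seen. Ccnd1 was among the 6 that fell, at log2 values from -0.757 to -0.573 with 1 library left out, and Axin2 of the set fell too. In the branch of cell polarity and calcium, 3 of 34 fell and none rose, a share of 8.82% that is no higher than that of all genes, namely Prkca (-0.99 ± 0.16), Plcb4 (-0.62 ± 0.13) and Rock2 (-0.27 ± 0.07). The Rock2 call, at an adjusted p of 0.049, held in 3 of the 8 other settings that kept every library, and the highest adjusted p in the rest was 0.0644, with scaling by upper quartiles. The calls of Dact1, Tcf7l2, Id2, Tbx3, Abcb1b, Tspan12 and Prkca held in all 6 fits that left out 1 library. Those of the other genes named from these lists were lost in at least 1: the highest adjusted p was 0.0609 for Porcn, 0.0629 for Cxxc4, 0.0885 for Fbxw11, 0.0881 for Ctnnb1, 0.0548 for Igfbp4, 0.117 for Cthrc1, 0.118 for Kremen1, 0.112 for Tle1, 0.0686 for Tle3, 0.139 for Tle4, 0.145 for Dkkl1, 0.152 for Sdc4, 0.116 for Reck, 0.0675 for Tle5, 0.0624 for Ephb2, 0.0565 for Ccnd1, 0.107 for Plcb4 and 0.16 for Rock2. Without 1 library, the rises among all these genes numbered between 2 (without Rnf111+/- replicate 2) and 16 (without wild-type replicate 3), and the falls between 5 and 17 for the same libraries.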

How the data were processed

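RNA from whole ovaries of 6 mice was sequenced from libraries built with a VAHTS Universal V6 kit, per the labels' protocols. The authors deposited whole-number read counts per gene symbol. The submitters' processing notes name fastp (0.20.1), HISAT2 (2.1.0), HTSeq (0.11.2), DESeq2 (1.38.3) and build GRCm39, without their roles, and annotation and strand setting were not given in the sources used here. Genotype came from the labels, and every count column matched 1 sample (0 did not).

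The deposited counts were filtered with filterByExpr (minimum count 10, total 15), scaled by TMM and tested two-sided with edgeR (4.0.16, R 4.3.3) (robust quasi-likelihood F-test on a design holding genotype alone), adjusted by Benjamini-Hochberg over 16841 genes. All 41 Wnt genes were tested. The SE is the absolute log2 fold change over the square root of F. Fold changes are Rnf111+/- over wild-type. Alternatives were DESeq2 (1.42.0) and limma-voom (limma 3.58.1) with and without quality weights, scaling, filters, a replicate term and leaving out each library. The pipeline was tested on simulated data. Exon lengths are unions of GENCODE M21 exons (GRCm38, found for 40 of the 41), so levels per kilobase are approximate. P-values measure the spread between these mice. The members, lists and tests were chosen with earlier results of these data known. Per-library values are given for genes that passed, had an absolute log2 fold change of at least 1 or were among the 2 most abundant of their role, and for others named after their values were seen (Wnt2b, Wnt5b, Rspo1, Rspo2, Znrf3, Rnf43). From each pathway list up to 4 genes of smallest p are named, and Wls, Tle1, Tle4, Dkkl1, Sdc4, Reck and Ccnd1 beside them.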

Additional observations from a re-analysis of the deposited data

How the results depend on the processing

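Of the 11 genes that passed, 10 were called under all 8 settings that kept every library, the exception being Wnt4, and 5 were called in all 6 fits that left out 1 library. Among the values of the 24 genes given in full, 3 turned in sign: Notum with quality weights (0.156) and without wild-type replicate 3 (0.435, in a range of -0.643 to 0.435 with 1 library left out), and Lgr4 without Rnf111+/- replicate 3 (-0.013, in a range of -0.013 to 0.175). With DESeq2, 7 Wnt genes rose and 2615 genes were called in all. With quality weights in limma-voom, 8 rose and 2854 were called. With 1 library left out, Wnt genes that rose numbered 2 to 8 and those that fell 3 to 8, other pathway genes that rose 2 to 16 and those that fell 5 to 17, and all calls 530 to 2795, with the highest counts without wild-type replicate 3. The fall of Rnf111 was lost with scaling by upper quartiles (-0.241), with no low-count filter (-0.268), with the replicate block (-0.272) and without 5 of the 6 single libraries (log2 from -0.271 to -0.255 over all 6). The cause of these moves was not tested. Same-numbered libraries did not deviate together (correlations across genes of 0.012, 0.006 and 0.1), so the replicate number was not taken as a pairing. With the replicate block, 5 Wnt genes rose and 7 fell, Frzb being the addition (adjusted p = 0.0231), and 1626 genes were called in all. Median log2 shifts of all genes between scalings stayed under 0.1. Depth limits the genes near the floor, such as Wnt7a, Fzd10os and Fzd10.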

Other observations

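The symbols that missed the minimum were 12 genes with few or no reads, given here as counts with no test. Wnt16 had 9, 11 and 8 counts in Rnf111+/- libraries, against 2, 1 and 42 in wild-type libraries, so that its highest value was in wild-type replicate 3. Wnt9b had 10, 13 and 2 counts in Rnf111+/- libraries, against 3, 2 and 6 in wild-type libraries, and Wnt3a had 2, 12 and 1, against 1, 4 and 1 in wild-type libraries. Wnt8a had 2, 1 and 4 counts in Rnf111+/- libraries, against 0, 0 and 1 in wild-type libraries. Wnt1, Rspo4, Sfrp5, Wif1 and Dkk1 had at most 5 counts in any library, and Wnt3, Wnt8b and Dkk4 were at 0 in all 6, where 3 counts in a library of this depth correspond to at most 0.0784 CPM.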
